A study of Arabidopsis thaliana with 2 samples.

Results

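BT1 to BT5 are the BTB and TAZ domain proteins of Arabidopsis thaliana, and all 5 loci were followed here out of 23667 loci with reads in the series: BT1 (AT5G63160), BT2 (AT3G48360), BT3 (AT1G05690), BT4 (AT5G67480) and BT5 (AT4G37610). The family was chosen by the read counts themselves, because BT2 had one of the largest differences between the libraries. The size of that difference is therefore a description and not a finding. The samples were seedlings, 12 days old, raised at 20 °C in long days on plates without treatment. There were 2 RNA-seq libraries. The Col-0 library came from the wild type of the standard laboratory accession, and the FMO5-OE library from the same accession with the genotype label FMO5-OE T1, read here as overexpression of the flavin-containing monooxygenase FMO GS-OX5. They are called the wild type and the overexpressor below. The sources used here do not give the meaning of T1, the promoter of the transgene, or how many lines and seedlings were taken. Each genotype had 1 library, so the genotypes could not be tested against each other. The intervals given cover counting error only, and the genotype cannot be told apart from any other difference between these 2 sets of seedlings.

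BT proteins join a BTB domain, through which they can serve as substrate adaptors of CUL3 ubiquitin ligases, to a TAZ zinc finger domain and a calmodulin-binding end. BT2 is the best studied member: its transcript falls with sugar, rises with nitrate and follows the day, and the protein is needed for telomerase activation by the factor TAC1. BT1 and BT2 are known to restrain nitrate uptake when nitrogen is scarce, BT1 is a short-lived protein of nucleus and cytoplasm, and BT1, BT2 and BT3 act redundantly in the female gametophyte.

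The file headers give totals of 11.56 M reads for the wild type and 12.21 M for the overexpressor (M, mega). FMO GS-OX5 (AT1G12140), which checks the label, had 28 reads in the wild type against 1379 in the overexpressor, the latter over 175 of the 2146 bases of its model 1. The labelled tissue was checked against marker genes. All 3 leaf markers (RBCS1A, LHCB1.1, RCA) were found, with a summed level of 10170 CPM in the wild type and 9014 CPM in the overexpressor. CPM are counts scaled to a common library size. Of 4 root markers 3 reached 1 CPM, with sums of 92.7 and 83.1 CPM, and 0 of 3 flower and 0 of 3 seed storage markers did. The leaf sum was lower in the overexpressor with all 3 markers below 0 in log2 ratio. The root sum was lower through CASP1 (73.3 and 63.2 CPM), while COBL9 and PLT1 lay above 0, at 0.02 and 0.11. The part of tissue makeup in the results below was not tested. In RNA of many tissues, a change in the share of expressing cells and in RNA per cell cannot be told apart.

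The stretches of 250 bases just before the annotated gene starts are shown first, for the 3 genes that were higher in the overexpressor (BT1, BT2, BT5) and for BT3, which was not. They were read 5′ to 3′ on the gene's strand from RefSeq's TAIR10.1 genome, at chr5:25335571-25335820 (minus strand), chr3:17910739-17910988 (minus), chr4:17672354-17672603 (minus) and chr1:1706486-1706735 (plus). Capitals mark the evening element AAATATCT, the TATCCA element, the TTATCC element and the core ACGT on either strand.
BT1: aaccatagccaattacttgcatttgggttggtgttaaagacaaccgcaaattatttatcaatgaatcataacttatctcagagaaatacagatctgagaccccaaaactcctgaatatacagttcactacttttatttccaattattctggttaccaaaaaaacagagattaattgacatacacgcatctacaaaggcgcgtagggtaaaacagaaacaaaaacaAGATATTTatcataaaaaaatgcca
BT2: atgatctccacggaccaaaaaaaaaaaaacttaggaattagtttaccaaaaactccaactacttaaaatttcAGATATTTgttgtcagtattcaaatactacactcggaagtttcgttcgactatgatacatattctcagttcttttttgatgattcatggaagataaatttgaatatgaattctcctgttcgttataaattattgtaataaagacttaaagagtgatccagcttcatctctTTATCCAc
BT5: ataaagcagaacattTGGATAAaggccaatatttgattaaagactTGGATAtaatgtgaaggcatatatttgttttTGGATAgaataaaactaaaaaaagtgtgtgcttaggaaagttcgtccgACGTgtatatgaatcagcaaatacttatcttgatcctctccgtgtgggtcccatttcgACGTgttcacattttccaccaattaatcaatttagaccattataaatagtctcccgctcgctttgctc
BT3: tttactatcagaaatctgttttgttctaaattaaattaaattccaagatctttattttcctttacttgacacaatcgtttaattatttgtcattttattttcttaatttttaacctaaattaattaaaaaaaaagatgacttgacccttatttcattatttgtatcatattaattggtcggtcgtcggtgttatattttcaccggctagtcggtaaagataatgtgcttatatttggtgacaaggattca

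The evening element, a binding site of clock factors, was present once before BT1 and once before BT2, at bases -25 to -18 and -178 to -171 from the start, and was not found in these windows of BT3, BT4 and BT5. It was held by 4.79% of the 27443 protein-coding genes in the same window. TATCCA, known as a sugar-starvation element from rice amylase genes, was present 3 times before BT5 and once before BT2, against 13.6% of all windows that held it. TTATCC, a sugar-repressive element, overlaps TATCCA by 5 letters in the word TTATCCA. It was present once before BT2 and once before BT5, in both cases as part of that longer word, and 2 times before BT4, against 12.5% of all windows. The ACGT core of bZIP sites was present 2 times before BT5 and not in the other 4 windows, against 44.1%. The G-box CACGTG (6.49% of all windows) and the core of the nitrate-responsive element (CTT and AAG spaced by 10 bases, 8.02%) were in none of the 5 windows. The W-box core TTGAC was present once before BT1 and 2 times before BT3, against 44.9%. The I-box core GATAA was present in all 5 windows, against 54.9%, and TATAAA before BT2 and BT5, against 47.3%. TTATCC holds GATAA on the other strand, so each TTATCC match before BT2, BT4 and BT5 is also counted as an I-box core. Each of these windows held a further GATAA outside TTATCC, at -87 to -83 (BT2), -77 to -73 (BT4) and -102 to -98 (BT5). A match describes letters and not a site in use, and the window leaves out most of each promoter.

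The proteins have between 364 and 372 residues, and model 1 of each gene has 5 exons. BT1 and BT2 are the closest pair, identical at 75.3% of 352 aligned residues. BT4 and BT5 are the next, identical at 59.2% of 365. BT3 is nearest to BT4, at 48.5%, and the other pairs lie between 39.3% and 45.4%. The genes are on chromosome 5 from 25333172 to 25335570 (BT1), chromosome 3 from 17907767 to 17910738 (BT2), chromosome 1 from 1706736 to 1709360 (BT3), chromosome 5 from 26930539 to 26933352 (BT4) and chromosome 4 from 17670481 to 17672353 (BT5). In spite of the shared domains, 0 stretches of 49 bases, the read length, were identical between the transcripts or found elsewhere in the nuclear genome, so reads can be told apart between members.

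Within the wild-type library, BT5 had the highest level per length, followed by BT2, BT1 and, far below, BT3. BT5 had 69.0 RPKM (reads scaled by transcript length in kilobases and by library total in M reads; Poisson 95% interval 65.1 to 73.1). BT2 had 49.8 RPKM (46.5 to 53.4) and BT1 47.4 (44.1 to 50.8), and these intervals overlap, so their order is not resolved. BT3 had 5.78 RPKM (4.76 to 6.97), 8.62 times below BT2. BT5 was thus among the upper 7.53% of the 23519 nuclear loci with reads, BT2 and BT1 among the upper 10.4% and 11.03%, and BT3 near the middle at 46.2%.

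Within the overexpressor library, BT2 was at the head. It had 236 RPKM (229 to 244), ahead of BT5 at 158 (153 to 165) and BT1 at 127 (122 to 133), and none of these intervals overlap. BT3 had 4.29 RPKM (3.44 to 5.30), 55.0 times below BT2. The order by level was therefore BT5, then BT2 and BT1 together, then BT3 in the wild type, and BT2, BT5, BT1, BT3 in the overexpressor. BT2 stood among the upper 1.82% of nuclear loci in the overexpressor, BT5 among the upper 3.05% and BT1 among the upper 3.93%, while BT3 was at 52.1%.

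**Figure D1:**
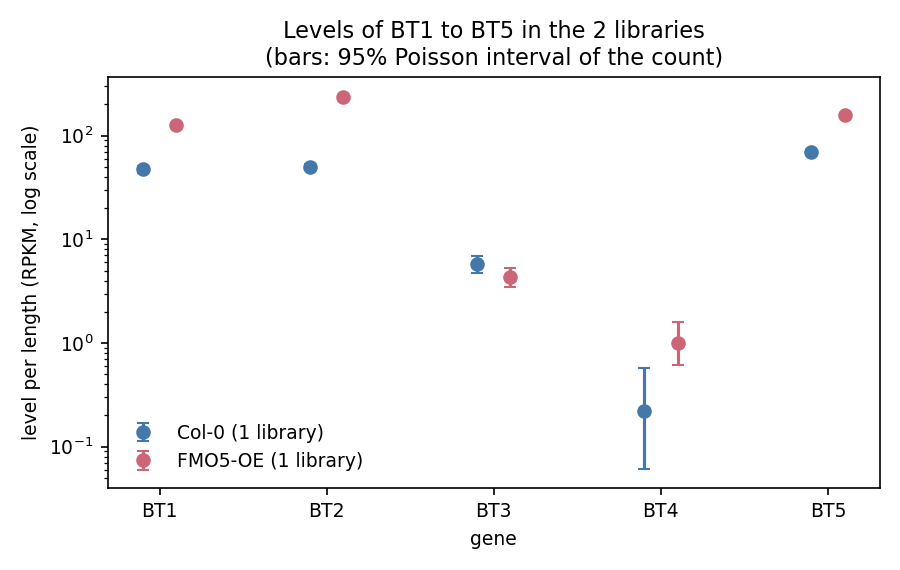
Level per length (RPKM, log axis) of BT1 to BT5 in the Col-0 and FMO5-OE libraries, 1 library each, with Poisson 95% intervals of the counts as bars. BT1, BT2 and BT5 lie higher in FMO5-OE, with BT2 rising from 49.8 to 236 RPKM, while BT3 lies slightly lower and BT4 rests on few reads.

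BT2 had 829 reads in the wild type against 4150 in the overexpressor. This is 74.1 CPM in the wild type and 329 CPM in the overexpressor. It was 4.44 times as high in the overexpressor (exact counting interval 4.12 to 4.79), with a log2 ratio of CPM + 1 of 2.13. BT1, its closest relative by sequence, had 770 reads in the wild type against 2182 in the overexpressor, which is 68.9 and 173 CPM. The fold of BT1 was 2.51 (2.31 to 2.73). The pair stood at about the same level per length in the wild type, and BT2 stood 1.86 times above BT1 in the overexpressor. The fold of BT2 was 1.77 times that of BT1 (exact interval 1.58 to 1.98).

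BT5 had 1147 reads in the wild type against 2782 in the overexpressor, which is 103 and 221 CPM. Its fold was 2.15 (2.01 to 2.30), smaller than that of BT2 by 2.06 times (1.86 to 2.29). BT1 exceeded BT5 in fold by only 1.17 times (1.05 to 1.30). The annotation describes BT4 and BT5 as cytoplasmic proteins expressed in leaves, fruit and flowers. The reads counted in these seedlings were many for BT5 and few for BT4, whose count may miss reads.

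BT3 had 111 reads in the wild type against 87 in the overexpressor, which is 9.93 and 6.89 CPM. It was thus the only one of the 5 genes that was lower in the overexpressor, at 0.695 of its wild-type level (0.519 to 0.928), a log2 ratio of -0.47. The fold of BT2 exceeded that of BT3 by 6.39 times (4.73 to 8.64). BT3, which shares its gametophyte role with BT1 and BT2, lay on the other side of 1 from both.

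By counted reads BT4 was near the lower limit of these libraries. It had 4 reads in the wild type against 19 in the overexpressor, which is 0.358 and 1.51 CPM, and its fold of 4.21 has an interval from 1.40 to 17.0. The ratio of its fold to that of BT2 was 0.949, with an interval from 0.314 to 3.85, so the folds of these genes cannot be ordered. Per length its counted reads gave 0.223 RPKM (0.0607 to 0.571) in the wild type and 1.01 (0.609 to 1.58) in the overexpressor. These were the lowest counted values of the family in both. The files list 2 models of BT4, which in the annotation share 1284 bases, or 82.1% of model 2. In the wild type the reads covered 110 of the 1553 listed bases of model 1 and 0 of model 2. In the overexpressor they covered 174 bases of model 1 and 180 of the 1494 of model 2. How the authors counted a read that matches several models is not stated. Where such reads are discarded the count is below the true level, so the count of BT4 is not taken as a level.

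Coverage was nearly complete for the other members with many reads. BT1 and BT2, each with 1 listed model and no overlapping locus, were covered over 98.8% to 99.3% of their length in both libraries. RefSeq's annotation gives each of them 3 models. The last 151 bases of BT5 overlap AT4G37608 on the opposite strand, and its reads covered 1310 bases in the wild type and 1330 in the overexpressor. If reads inside that overlap are discarded, at most 1335 of its 1438 bases can be covered. BT3, on its few reads, was covered over 86.0% of its 1660 bases in the wild type and 90.8% in the overexpressor.

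By the rule of size used here, a log2 ratio of 1 or more and at least 5 CPM in the higher library, 3 of the 5 genes (BT1, BT2 and BT5) passed as higher in the overexpressor and 0 as lower. Of all 13019 nuclear loci reaching 5 CPM, 0.737% passed as higher and 0.346% as lower. As the genes were chosen on this difference, nothing is read from their share. With plain total count CPM, 81.4% of the loci at least 2-fold apart were higher (136 against 31), compared with 68.1% (96 against 45) under the scaling used. BT2 held place 3 among the 13019 loci in the order of log2 ratios, BT1 place 29 and BT5 place 71, while BT3 was place 573 from the lower end. BT4 did not reach the minimum.

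**Figure D2:**
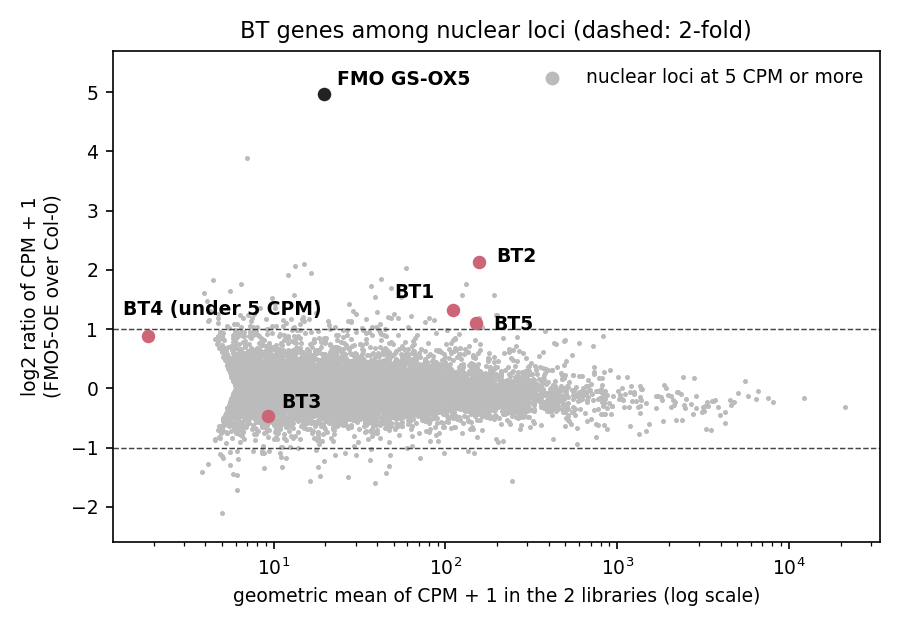
Log2 ratio of CPM + 1 (FMO5-OE over Col-0) against the geometric mean of CPM + 1 (log axis) for the 13019 nuclear loci at 5 CPM or more (grey), with the BT genes in red and FMO GS-OX5 in black. BT2, BT1 and BT5 lie above the dashed 2-fold line at log2 ratios of 2.13, 1.32 and 1.096, BT3 lies at -0.47, and BT4 lies left of the minimum.

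Among 12842 protein-coding loci at 5 CPM or more only FMO GS-OX5 lay above BT2 in log2 ratio of CPM + 1. The next below it were SDI1, a sulfur deficiency gene, at 6.26 CPM in the wild type and 30.1 CPM in the overexpressor, the transcription factor gene WRKY40 at 5.46 and 26.1 CPM, and AT1G02660 at 27.99 and 118 CPM. Their log2 ratios were 2.1, 2.07 and 2.04, against 2.13 for BT2, in 2 libraries. These genes were picked by their place next to BT2, so the closeness is fixed by the choice and nothing is read from it. The order depends on the added 1 CPM, which lowers the ratios of low genes: the plain folds of SDI1 and WRKY40, 4.81 and 4.79, were above the 4.44 of BT2, and that of AT1G02660 was 4.21. Of the 94 protein-coding loci at least 2-fold higher, 3 had 329 CPM or more in the overexpressor. These were BT2, WRKY33 and TPS8, the last a member of the trehalose-phosphate synthase family. The limit of 329 CPM is the level of BT2 itself, so BT2 is among them by construction.

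All 5 genes together had 2861 reads in the wild type and 9220 in the overexpressor, or 256 and 731 CPM. The family sum was 2.86 times as high in the overexpressor (2.74 to 2.98). BT2 made up 53.4% of the CPM gained by BT1, BT2 and BT5. The share of BT2 among family reads was 29.0% in the wild type (exact interval 27.3% to 30.7%) and 45.0% in the overexpressor (44.0% to 46.0%). The share of BT5 was 40.1% (38.3% to 41.9%) in the wild type and 30.2% (29.2% to 31.1%) in the overexpressor. The share of BT1 was 26.9% (25.3% to 28.6%) and 23.7% (22.8% to 24.6%), and that of BT3 3.88% (3.20% to 4.65%) and 0.944% (0.757% to 1.16%). The most counted member was BT5 in the wild type and BT2 in the overexpressor. BT1 and BT5 had higher CPM in the overexpressor but smaller shares, as the fold of BT2 was larger, and since BT2 was chosen for its difference these shares are a description of 2 libraries. BT4 held 0.140% (0.0381% to 0.358%) and 0.206% (0.124% to 0.322%). As reads matching several of its models may be missing, these are shares of counted reads.

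**Figure D3:**
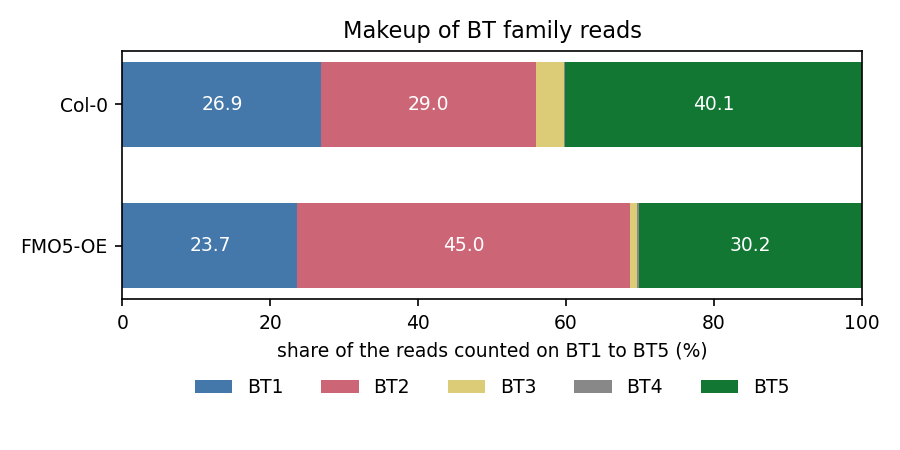
Share of the reads counted on BT1 to BT5 (%, axis from 0 to 100) in each library. BT2 takes 29.0% in Col-0 and 45.0% in FMO5-OE, while the shares of BT1, BT3 and BT5 are smaller in FMO5-OE.

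The genes beside the BT genes on the chromosomes had folds whose intervals all included 1, among those with 20 or more reads in all. CEP3, a cysteine endopeptidase gene 76 bases from the 3′ end of BT2, had 17.4 CPM in the wild type and 19.4 in the overexpressor, a fold of 1.12 (0.923 to 1.36). AT5G63150 beside BT1 had a fold of 0.876 (0.737 to 1.04). These intervals do not reach the folds of BT2 and BT1. UGT74E2 and AT1G05700 on either side of BT3 had 0.839 (0.621 to 1.13) and 1.06 (0.790 to 1.44). FH6, a formin gene that overlaps the end of BT4 by 18 bases on the other strand, had 0.9501 (0.845 to 1.07). AT5G67490 beside BT4, with 23 and 14 reads, and CYCD5;1 beside BT5, with 14 and 23, had wide intervals, and that of CYCD5;1 (0.718 to 3.06) includes the fold of BT5. AT4G37608, which overlaps BT5, had 17 reads in the wild type and 34 in the overexpressor, a fold of 1.77 (0.963 to 3.38). As the use of strand is not stated, its reads and those of BT5 cannot be told apart within the overlap. AT5G63170 beside BT1 had 0 reads in both libraries, and AT3G48380 beside BT2 had 1 and 2.

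**Figure D4:**
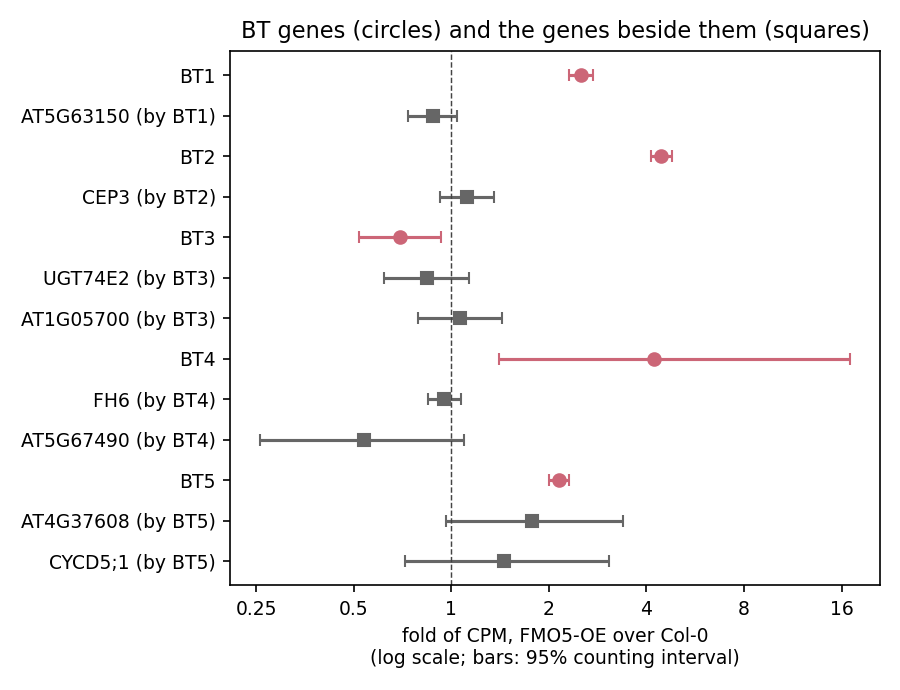
Fold of CPM (FMO5-OE over Col-0, log axis) with 95% counting intervals for the BT genes (circles) and for the nearest protein-coding genes with 20 or more reads in all (squares). The intervals of all squares include 1, while those of BT1, BT2, BT4 and BT5 lie above 1 and that of BT3 below.

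Of the partner genes of BT proteins, 5 reached 5 CPM and 0 of these passed the 2-fold rule. Over all loci at that level 0.737% passed as higher and 0.346% as lower, so nothing is read from that 0. Of 11 listed partner genes 9 reached 1 CPM, 6 with a log2 ratio above 0 and 3 below, and the median was 0.12. The median over the 18060 nuclear loci reaching 1 CPM was -0.003, and 49.7% of them lay above 0. CUL3A, the scaffold of the ligase, had 150 CPM in the wild type and 162 in the overexpressor, and its copy CUL3B 28.3 and 34.2 CPM, a fold of 1.21 (1.04 to 1.40). The bromodomain factor GTE11, known to bind BT1, had 63.7 and 70.5 CPM, a fold of 1.11 (1.003 to 1.22). PID, a kinase of auxin transport for which BT1 is a reported binding protein, had 10.6 and 8.88 CPM, a fold of 0.841 (0.644 to 1.099). TAC1 had 12 and 11 reads and the telomerase gene TERT 16 and 14, too few to compare. RBX1A, the RING subunit of the ligase, had 1 and 0 reads although every cell needs it. Why so few reads were counted was not tested, and its count is not taken as a level. It has 3 annotated models, as do BT1 and BT2. CUL3A, RBX1A, TAC1 and TERT were named for their roles after their values were seen.

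Genes of the same domain classes were set beside the family. The TAZ domain is shared with the histone acetyltransferases of the HAC family, of which 4 of 5 reached 1 CPM. All 4 lay above 0, between 0.04 and 0.20 in log2 ratio, with a median of 0.12, beside 49.7% above 0 among all nuclear loci. HAC1 had 12.0 CPM in the wild type and 13.9 in the overexpressor, HAC5 37.1 and 42.4, and HAC12 7.07 and 7.37. HAC12 has 10 annotated models, and reads matching several of them may be missing. Of 20 other BTB proteins that serve CUL3, 19 reached 1 CPM, 11 above 0 and 8 below, with a median of 0.10. The 2-fold rule could call the 13 that reached 5 CPM, and 0 passed, beside 0.737% higher and 0.346% lower of all loci. The highest ratio of the list was that of NPR3, a salicylic acid receptor, with 420 and 901 reads and a fold of 1.90 (1.69 to 2.14). Its relative NPR4 had a fold of 1.22 (1.05 to 1.41), and NPR2 0.720 (0.527 to 0.981).

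Of the nitrate response genes, among which BT1 and BT2 are counted, 12 reached 5 CPM and 0 of these passed the 2-fold rule. Over all loci 0.737% passed as higher and 0.346% as lower, so nothing is read from that 0. Of 18 listed genes 16 reached 1 CPM, 13 above 0 and 3 below, with a median of 0.13. Of all nuclear loci at that level 49.7% lay above 0, with a median of -0.003. TGA1, at a log2 ratio of 1.03 on 3 and 20 reads, did not reach the minimum of 5 CPM. It has 7 annotated models, and reads matching several of them may be missing. The largest log2 ratios in size at 5 CPM or more were those of HRS1, a repressor of nitrate and phosphate responses, with a fold of 1.26 (1.12 to 1.41), of NLP7, the master regulator of nitrate signalling, with 1.18 (1.102 to 1.26), and of LBD38, a nitrate-induced repressor, with 1.17 (1.09 to 1.26). Nitrate reductase NIA1 had 7198 reads in the wild type against 9010 in the overexpressor, a fold of 1.11, and NIA2 one of 1.02. The nitrate transporter NRT2.1, which BT1 and BT2 are known to restrain, had 33 and 35 reads, and NRT2.4 0 and 6. TGA1 and these 4 were named for their roles after their values were seen.

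Genes lowered by sugar or raised by starvation held 6 at least 2-fold apart. Of 20 listed genes 19 reached 1 CPM, 17 above 0 and 2 below, with a median of 0.38, beside 49.7% above 0 and a median of -0.003 over all nuclear loci at that level. The 2-fold rule could call the 17 that reached 5 CPM. Of these, 5 were at least 2-fold higher and 1 was at least 2-fold lower, beside 0.737% and 0.346% of all loci. TPS11 and TPS8, of the trehalose-phosphate synthase family, had folds of 2.28 and 2.17, SEN1 2.28, the raffinose synthase family gene DIN10 2.52 and the asparagine synthetase ASN1 2.19. The beta-glucosidase gene DIN2 was at 0.376 of its wild-type level (0.304 to 0.463). The next were AT3G15450 with a fold of 1.91, the hexose transporter STP1 with 1.82 and EXL1 with 1.54. RefSeq's annotation gives SEN1 6 models, DIN10 and ASN1 4 each, AT3G15450 3, and TPS8 and DIN2 2 each. It gives TPS11, STP1 and EXL1 1 each. DIN10, ASN1, AT3G15450 and STP1 each overlap 1 locus on the opposite strand. Reads matching several models or loci may be missing from these counts, which were 44 and 125 for DIN10 and 62 and 153 for ASN1. The 5 higher genes had folds of 2.17 to 2.52, a range that the 2-fold rule bounds from below. BT1 at 2.51, BT5 at 2.15 and BT2 at 4.44 passed the same rule, so nothing is read from their place. The list was drawn up with earlier results of these libraries known and is no independent support. Of the sugar-signalling kinases and bZIP factors 3 of 8 reached 1 CPM. SnRK1.1, the catalytic kinase subunit, had 62 and 66 reads, a fold of 0.943 (0.657 to 1.36). It has 3 annotated models and overlaps AT3G01100 on the same strand, so its count, like that of RBX1A, is not taken as a level. The factors bZIP1, bZIP11, bZIP44 and bZIP53 had 0 reads in both libraries. Only if the counting left out no reads does this bound them, at 0.268 CPM in the wild type and 0.238 in the overexpressor. In RefSeq's annotation none of these 4 loci overlaps another locus. The models that the authors counted on can differ from it, and their overlaps were not checked. Whether the zeros show the true level was not tested, so they are not taken as a level.

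As BT2 follows the time of day, clock genes were set beside it. Of 11 listed genes 9 reached 1 CPM, 6 above 0 and 3 below, with a median of 0.13. Over all nuclear loci at that level 49.7% lay above 0 and the median was -0.003. The 2-fold rule could call the 7 that reached 5 CPM, and 0 passed, beside 0.737% higher and 0.346% lower of all loci. The morning gene CCA1 had 20.8 CPM in the wild type and 24.8 in the overexpressor, a fold of 1.19 (1.002 to 1.42), PRR7 one of 1.13 (1.06 to 1.21) and PRR5 one of 0.854 (0.622 to 1.17). LHY, the partner of CCA1, had 31 and 15 reads, a fold of 0.429 (0.215 to 0.819). RefSeq's annotation gives LHY 8 models, CCA1 3 and PRR7 2, and reads matching several models may be missing from their counts. The count of LHY is not taken as a level. LHY was not counted by the rule because it did not reach 5 CPM and its log2 ratio of CPM + 1 was -0.79. It was named after its values were seen. The part of harvest time in the difference of BT2 was not tested.

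**Figure D5:**
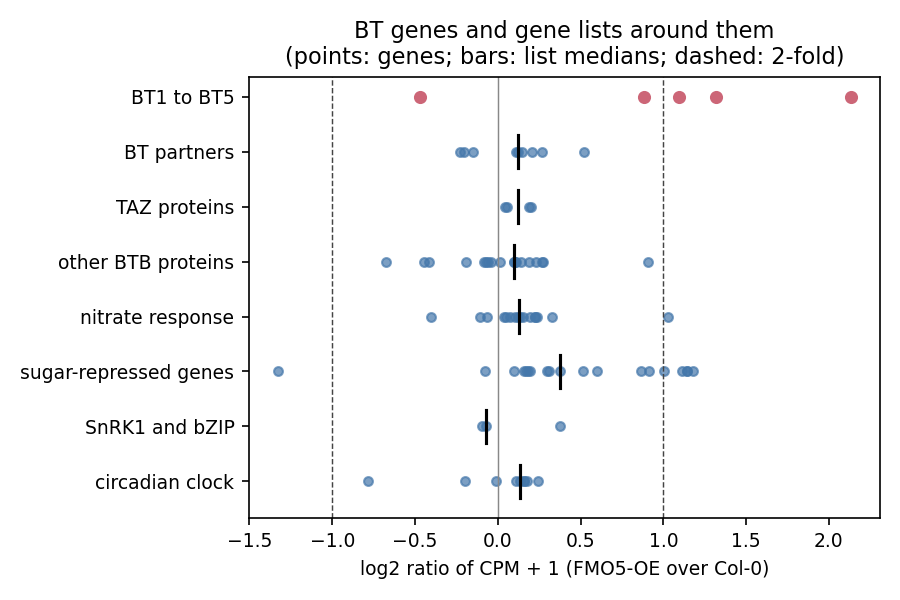
Log2 ratio of CPM + 1 (FMO5-OE over Col-0) of BT1 to BT5 (red) and of the members at 1 CPM or more of the 7 gene lists (blue), with list medians as bars and 2-fold as dashed lines. Of the genes lowered by sugar 5 lie at or above the upper 2-fold line and DIN2 below the lower one, and in the other lists NPR3 at 0.91 and TGA1, on 3 and 20 reads, at 1.03 lie highest.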

How the data were processed

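RNA of seedlings was sequenced. The sources used here do not give the aligner, the counting program or the use of strand. The deposited values are counts of unique reads for each transcript model, as the file headers name them, and the authors' files add each model's length, its RPKM and its covered share. Per the submitters' processing notes, TAIR10 was the build. RPKM recomputed from count, length and total returned 100% of the authors' values, within a tolerance wide enough for rounding to whole numbers. For models of low RPKM that tolerance is as large as the value, so the check says little there. Models without reads are not listed and were taken as 0.

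The count of a locus is the sum over its listed models. CPM used TMM factors of edgeR 4.0.16, which were 0.967 (Col-0) and 1.03 (FMO5-OE). The minimum of 5 CPM equals 55.9 reads of the Col-0 library and 63.1 of the FMO5-OE library. RPKM used the library totals. Log2 ratios are of CPM + 1, which understates differences of low genes, and folds are ratios of CPM. Intervals are exact (Clopper-Pearson for folds and shares, conditional odds ratios for ratios of folds, Poisson for levels) at 95%. With 1 library per genotype there is no p-value. The fold, its interval and the 2-fold rule were tested on simulated Poisson counts, with changes placed only in genes of many reads. That test cannot show how they behave with differences between sets of seedlings or for changed genes of few reads.

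Coordinates, symbols and sequences are from the TAIR10.1 genome and annotation of RefSeq, whose model lengths differ from the deposited ones for BT1 to BT4. Proteins were translated from it and aligned with Biopython 1.88 (BLOSUM62, gap opening 11, extension 1, end gaps free). Work was done in Python 3.11.15 with scipy 1.17.1, pandas 2.3.3, numpy 2.4.6 and matplotlib 3.10.9, and in R 4.3.3, where DESeq2 1.42.0 gave alternative size factors.

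The genes, the 11 lists of 106 entries and the motifs were chosen with earlier results of these data known. The annotation repeated the symbol of 99 entries. Named were the BT genes, FMO GS-OX5, loci next to BT2 in the order of ratios (3 on either side, where present), the nearest protein-coding genes, and per list the members at least 2-fold apart and the 3 others with the largest ratio at 5 CPM or more. Other names were added for their roles after their values were seen.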

Additional observations from a re-analysis of the deposited data

How the results depend on the processing

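No paired analysis was possible because each genotype had 1 library. The alternatives were DESeq2 size factors, total count CPM, equal nuclear totals, pseudocounts of 0.1 and 5, the model with most reads, and other minimums of CPM. The BT genes were recomputed under all of these but the minimums, and BT1, BT2, BT3 and BT5 kept their direction, and with total count CPM the folds were 2.68, 4.74, 0.742 and 2.30. The log2 ratio of BT4, 0.88 in the report, was 1.81 with a pseudocount of 0.1 and 0.28 with 5. That of FMO GS-OX5 was 5.39 with a pseudocount of 0.1 and 3.93 with 5. The loci counted as higher and lower were 42 and 17 with a pseudocount of 5 and 56 and 21 at a minimum of 20 CPM, as larger limits count fewer loci. With total count CPM, which shifts all genes alike, the medians were 0.22 for partner genes, 0.22 for nitrate genes, 0.21 for TAZ proteins, 0.19 for BTB proteins, 0.23 for the clock, -0.061 for leaf and 0.11 for root markers. With equal nuclear totals they were 0.21 for partner genes, 0.22 for nitrate genes and the clock, -0.068 for leaf and 0.11 for root markers. The root median was -0.095 at a minimum of 5 CPM. For genes lowered by sugar or raised by starvation the median of 0.38 was 0.47 with total count CPM and 0.46 with equal nuclear totals. At a minimum of 5 CPM it was 0.52. For sugar-signalling kinases and bZIP factors the median was -0.071 on 3 genes. It was 0.0099 with total count CPM and 0.24 with the model with most reads. The median of all loci at 5 CPM or more was -0.013, and 0.081 with total count CPM. Low counts limited BT4, TAC1, TERT and the bZIP factors. The counts of BT4 and of the bZIP factors with 0 reads are not taken as levels.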
